A study of Oryza sativa Indica Group with 4 samples.

Results

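The D-type cyclin genes (CYCD) and the retinoblastoma-related genes (RBR) of rice were followed in seedlings of a T-DNA insertion line named for OsAPC6 and of its parent, the Basmati 370 cultivar. Members were the probe sets with a single annotated gene whose symbol or synonym reads CYCD digit-digit, RBR1 or RBR2. This took 13 of the 57381 probe sets of the array: 10 for 9 D-type cyclin genes and 3 for the 2 RBR genes. The gene table holds 10 such D-type cyclins, and CYCD2-1, which no probe set names, was not analysed here. The groups were 2 mutant arrays (mutant replicates 1 and 2, labelled as the insertional mutant OsAPC6) and 2 wild-type arrays (wild-type replicates 1 and 2), all Basmati 370, an Indica rice, and all from seedlings 15 days after germination under the same growing conditions. Each array received RNA of one sample, and the design text calls the samples biological replications. The labels give neither the place of the insertion nor the number of lines, and the transcript of OsAPC6 was not analysed here.

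D-type cyclins couple growth signals such as sugars and cytokinin to entry into the cell cycle. They bind a cyclin-dependent kinase of the A type, and the complex phosphorylates retinoblastoma-related proteins, which otherwise hold E2F transcription factors inactive and keep the genes of DNA replication low. KRP and SIAMESE-type proteins inhibit the kinase. The anaphase-promoting complex, of which APC6 is a subunit, is a ubiquitin ligase that acts later, on mitotic A- and B-type cyclins. In seedlings D-type cyclins are best known from meristems, young leaves and lateral root primordia. Which part of a whole seedling their transcripts come from was not tested here.

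The arrays held rice signals on a common level, with a trimmed mean of 500.1 in each, and 61.9% to 62.8% of probe sets under a signal of 100. As a level without a rice target, 63 reporter probe sets for sequences of other organisms were used. Their highest signal in any array was 78.5. Left out of that limit, after its values were seen, was 1 further reporter probe set. It read 10386 and 9989 in the mutant arrays against 245.6 and 287.2 in the wild-type arrays. Which probe sets count as above the reporters rests on that choice. CYCD6-1, for example, at 141.8 and 75.8 in the wild-type arrays, read lower than the reporter left out. The seedling label was checked on marker lists. Green leaf markers were bright except RBCS1, which read under 78.5 in every array. The 5 had a summed signal of 141325 to 162276 in mutant arrays and 124011 to 128748 in wild-type arrays. Of these 2, RBCS and rca, were higher in the mutant, where 26.1% of all annotated genes were called (12.8% higher and 13.3% lower). Among root markers 1 of 4, the silicon channel gene NIP2-1, was lower. It read 967.1 and 1025.3 in mutant arrays against 1522.8 and 1836.5 in wild-type arrays, most of the summed root signal of 1104 to 1209 in mutant arrays and 1837 to 2063 in wild-type arrays. Among markers of dividing cells (B-type cyclins and kinases, histone H2B) 2 of 8, the histone genes H2B.5 and H2B.7, were lower, and no B-type cyclin or kinase was called. Of these, CYCB2 and CDKB2-1 read under 78.5 in every array, and CYCB1-1 ran from 44.2 to 113. The 8 had a summed signal of 25999 to 26541 in mutant arrays and 28034 to 28564 in wild-type arrays, nearly all of it from the H2B genes. No signal of the meristem homeobox genes OSH6, OSH43 and OSH71 passed 78.5, and 1 of 4 meristem markers, the cytokinin-activating gene LOG, was higher. The signal ratio of the 3′ to the 5′ end of GAPDH, a measure of RNA integrity, was 18.4 and 16.2 in mutant arrays against 9.72 and 9.84 in wild-type arrays. That of ubiquitin was 1.32 and 1.27 in mutant arrays and 1.04 and 1.03 in wild-type arrays. The ratios of actin (12.2 and 16.6 in mutant arrays, 16.1 and 8.79 in wild-type arrays) and cyclophilin (2.92 and 2.38 in mutant arrays, 2.27 and 2.86 in wild-type arrays) overlapped. The part of tissue make-up or RNA integrity in the values given here was not tested, and in whole seedlings fewer cells of a type and less RNA per cell cannot be told apart.

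None of the D-type cyclin or RBR probe sets passed the test between genotypes. Of the 13, 12 lay above the filter on dim probe sets and were tested on log2(signal + 16), and limma called 0 at a Benjamini-Hochberg adjusted p under 0.05, against 19.0% of all 38172 probe sets tested (8.78% higher and 10.2% lower in the mutant). At an unadjusted p under 0.05 limma took 3, RBR2, CYCD5-1 and CYCD5-2 by its brighter probe set, all lower in the mutant, where 30.6% of all probe sets reached that level (14.0% higher and 16.5% lower). Their log2 differences, mutant minus wild type, ran from -0.39 for CYCD5-1 to 0.50 for CYCD4-2, with 6 below 0 and 6 above. The median over the 12 was -0.01, as it was over all tested probe sets, and the median size of the difference was 0.19 for these 12 and 0.30 for all. In 5 of the 12, both mutant arrays lay outside the range of the wild-type arrays, 3 lower and 2 higher, where 56.7% of all tested probe sets were separated in this way (26.9% higher and 29.8% lower). A difference of at least 1.5-fold in all 4 pairs of a mutant and a wild-type array was found in 0 of the 12 and in 12.7% of all (7.77% higher and 4.94% lower). With 2 arrays per genotype an exact permutation test cannot go under p = 0.333, so that test could not have passed the threshold of 0.05. The limma fit lets the expected variance follow the signal. With a single variance prior limma called 0 of all 38172 probe sets. Before adjustment 9039 of them had a limma p under 0.05, and 0 of the 12 members did.

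**Figure D1:**
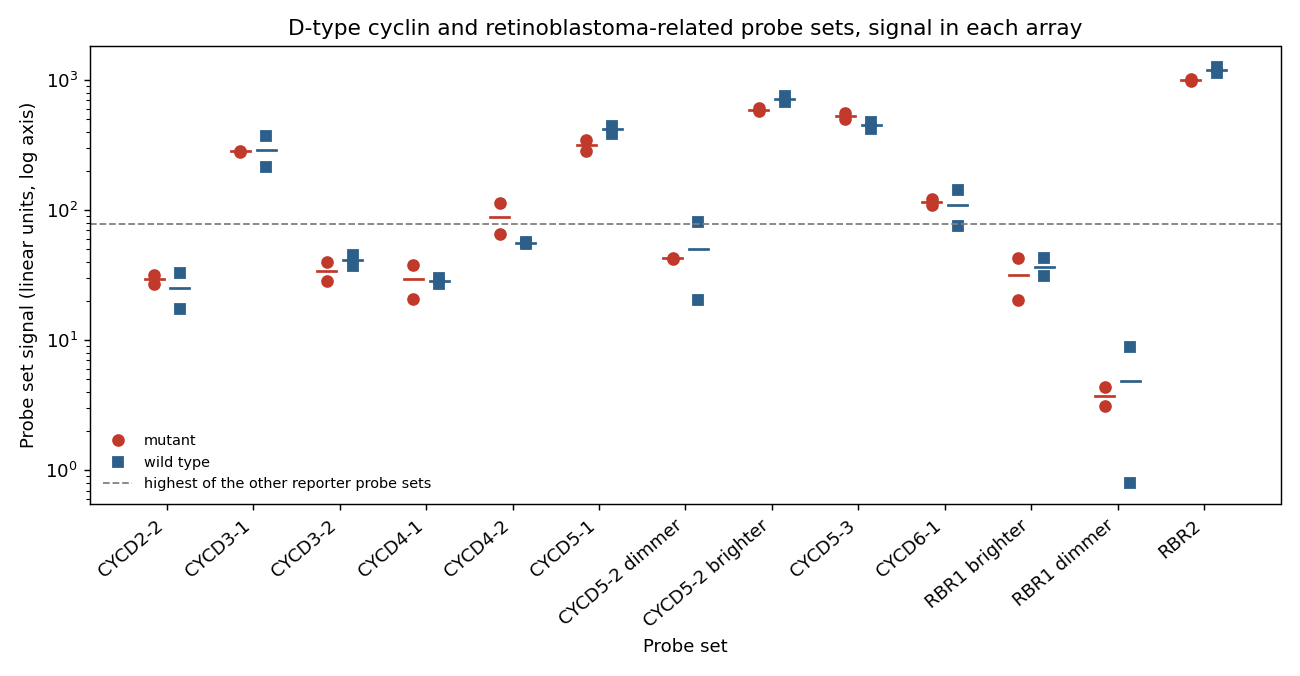
Signal of each of the 13 probe sets in each array, on a log axis in linear signal units, with 2 mutant arrays (circles) and 2 wild-type arrays (squares) and short lines at the group means. The dashed line at 78.5 is the highest signal of 63 reporter probe sets. RBR2, CYCD5-1, CYCD5-3, CYCD3-1 and the brighter CYCD5-2 probe set lie above the line in all 4 arrays.

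RBR2 and RBR1 encode the retinoblastoma-related proteins that the cyclin D kinase inactivates. RBR2 (LOC4350648) read 973.4 and 1011 in the mutant arrays, against 1261.8 and 1121.8 in the wild-type arrays. Both mutant arrays lay below both wild-type arrays, and the gap between the groups was 110.8, less than the 140 between the wild-type arrays themselves. Its mean was 992 ± 26.6 in the mutant and 1192 ± 99 in wild type (SD, n = 2 each), 16.7% lower, with a log2 difference of -0.26 ± 0.09 (SE) and a limma adjusted p of 0.0889, the lowest among the members. The 95% interval of the ratio ran from 0.722 to 0.967, without adjustment for the number of probe sets.

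RBR1 (LOC4346176) was represented by probe sets ending in _s_at, a suffix for probes that match more than one transcript, and neither read above the reporters. The brighter one gave 20.5 and 42.5 in the mutant arrays and 42.6 and 30.9 in the wild-type arrays, so the genotypes overlapped (log2 difference -0.18 ± 0.45, SE; limma adjusted p = 0.841). The dimmer one read 3.1 and 4.4 in the mutant arrays and 8.9 and 0.8 in the wild-type arrays. It was the 1 member removed by the filter and has no test. Neither genotype thus gave an RBR1 signal that could be told from the reporter level.

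The CYCD5 genes gave 3 of the 6 probe sets with a mean above the reporters, and their values split in direction. In Arabidopsis a cyclin of this class, CYCD5;1, is known from natural variation in endoreduplication, the DNA doubling of growing leaf cells. CYCD5-1 (LOC4333455) read 346 and 282 in the mutant arrays, against 445.7 and 386.8 in the wild-type arrays. Both mutant values were lower than both wild-type values, and the group means of 314 ± 45.3 and 416 ± 41.6 (SD, n = 2 each) differed by 24.6%, the deepest negative difference of the 12. The log2 difference was -0.39 ± 0.15 (SE), with a 95% interval of -0.74 to -0.05 and a limma adjusted p of 0.111.

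CYCD5-2 (LOC4352668) was measured by a pair of probe sets of unlike brightness. The brighter one read 603.5 and 577.7 in the mutant arrays and 755.1 and 675.9 in the wild-type arrays, with no overlap. Its log2 difference was -0.27 ± 0.11 (SE; 95% interval -0.51 to -0.02; limma adjusted p = 0.125). The dimmer one read 42.4 and 42.7 in the mutant arrays, inside the wild-type values of 81.1 and 20.2, at a log2 difference of -0.02 ± 0.50 (SE). Its interval, -1.12 to 1.09, includes the whole interval of the brighter probe set.

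CYCD5-3 (LOC4331985) leaned the other way. It read 501.1 and 552.7 in the mutant arrays, against 422.9 and 475.7 in the wild-type arrays, so both mutant arrays were above both wild-type arrays, by 25.4 at the nearest. The means were 527 ± 36.5 in the mutant and 449 ± 37.3 in wild type (SD, n = 2 each). The log2 difference of 0.22 ± 0.13 (SE) had a 95% interval of -0.06 to 0.50 and did not pass (limma adjusted p = 0.273).

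**Figure D2:**
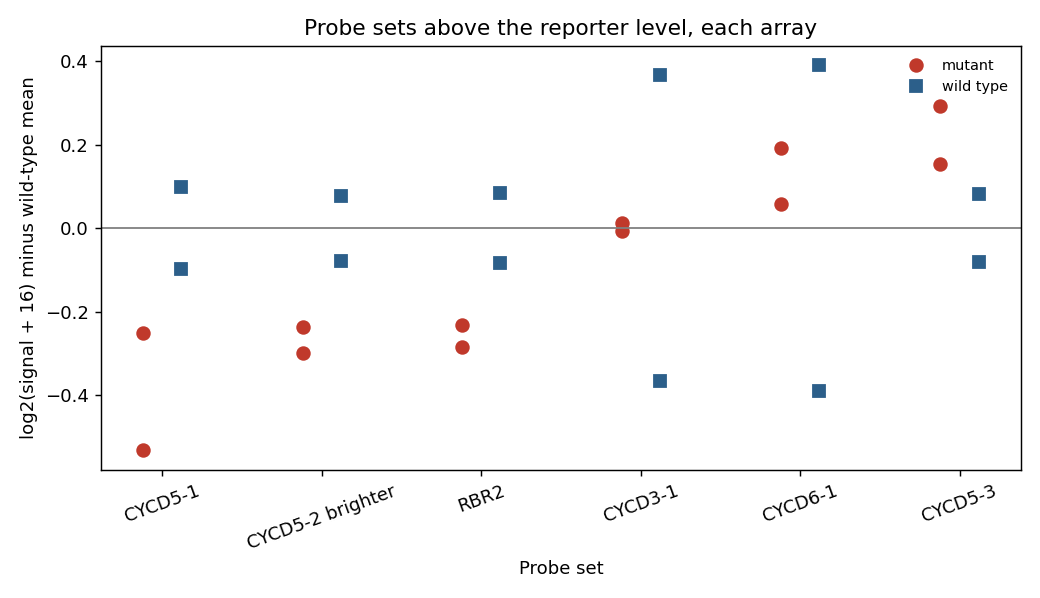
Each array's log2(signal + 16) minus the wild-type mean for the 6 probe sets whose mean over the 4 arrays exceeded 78.5, with mutant arrays as circles and wild-type arrays as squares. The genotypes are separated for CYCD5-1, the brighter CYCD5-2 probe set, RBR2 and CYCD5-3, and the wild-type arrays enclose the mutant arrays for CYCD3-1 and CYCD6-1.

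CYCD3-1 and CYCD6-1 also had means above the reporters, and for both the wild-type arrays spread more widely than the genotypes differed. Arabidopsis CYCD3 cyclins keep leaf cells dividing and answer to cytokinin, and Arabidopsis CYCD6;1 acts in the formative divisions of the root ground tissue. CYCD3-1 (LOC4340499) read 284.1 and 280.2 in the mutant arrays and 214.8 and 368 in the wild-type arrays. The mutant arrays differed by 3.9 and the wild-type arrays by 153.2, and the log2 difference between genotypes was 0.00 ± 0.22 (SE; 95% interval -0.50 to 0.50; limma adjusted p = 0.997). CYCD6-1 (LOC4343569) read 121.6 and 109.2 in the mutant arrays, between the wild-type values of 141.8 and 75.8, the lower of which is under the reporter limit (log2 difference 0.13 ± 0.30, SE; limma adjusted p = 0.838).

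The remaining D-type cyclins read at or near the level of the reporters in most arrays. Arabidopsis CYCD2 is a sucrose-responsive cyclin, and Arabidopsis CYCD4 acts in the stomatal lineage of the hypocotyl. CYCD2-2 read 27 and 31.6 in the mutant arrays and 32.8 and 17.3 in the wild-type arrays. CYCD3-2 read 28.3 and 39.9 in the mutant arrays and 45.3 and 36.9 in the wild-type arrays. CYCD4-1 read 20.8 and 37.8 in the mutant arrays and 30.1 and 26.8 in the wild-type arrays. All 3 overlapped between genotypes, with log2 differences of 0.17, -0.19 and 0.00 and limma adjusted p-values of 0.863, 0.81 and 0.998, in the order given.

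CYCD4-2 (LOC4345844) had the highest log2 difference of the members with all 4 arrays, and its size rested on mutant replicate 1. It read 112.9 and 65.3 in the mutant arrays, against 57.3 and 55 in the wild-type arrays. The mutant arrays lay above both wild-type arrays, but only the first passed the reporter limit, and they differed from each other by 47.6 where the nearest gap between genotypes was 8. The log2 difference was 0.50 ± 0.34 (SE), with a 95% interval of -0.25 to 1.26 and a limma adjusted p of 0.37. It was 0.17 without mutant replicate 1 and 0.84 without mutant replicate 2.

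The width of these intervals followed the signal. Among the 6 tested probe sets with a mean above 78.5, standard errors ran from 0.09 to 0.30, and all 6 intervals lay inside a 2-fold change in either direction. Among the 6 others they ran from 0.34 to 0.50, and each of these 6 intervals reached a 2-fold change on at least one side. Of all 22814 probe sets with a mean above 78.5, limma called 30.5%, against 0 of these 6, and 45.7% had an unadjusted p under 0.05, against 3 of the 6. The arrays of the genotypes were separated in 69.0% of those 22814 and in 4 of the 6.

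**Figure D3:**
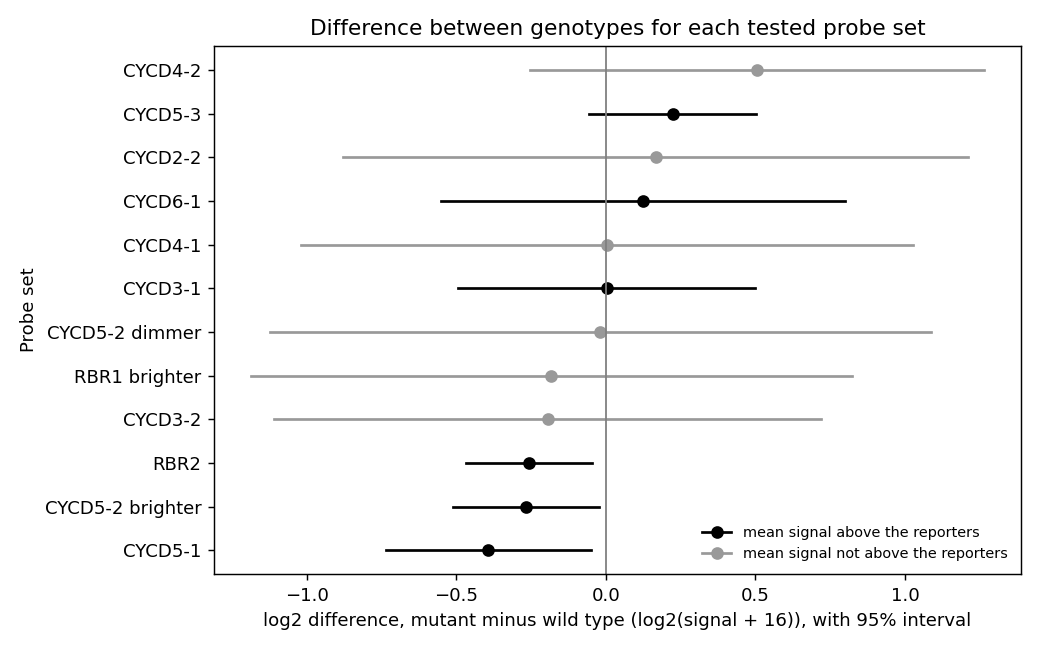
Log2 difference, mutant minus wild type, of the 12 tested probe sets with 95% intervals from limma, not adjusted for the number of probe sets. Black marks have a mean signal above 78.5 and grey marks do not. The intervals of RBR2, CYCD5-1 and the brighter CYCD5-2 probe set lie below 0, and all others include 0.

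Other cyclin, cyclin-dependent kinase, inhibitor and DNA replication genes, taken by name, were read from the same fit. The brightest probe set of each gene was used. The lists span many classes of cyclin and kinase, so not all of these genes need act on the route from D-type cyclins through RBR. Of 58 such genes tested, 14 passed, 5 higher and 9 lower in the mutant. That is 24.1% (8.62% higher and 15.5% lower), where 26.1% of all 16488 annotated genes passed (12.8% higher and 13.3% lower). The balance of rises and falls changed with the setting. With no filter 5 were higher and 3 lower, where 2362 of all 57258 probe sets were higher and 2599 lower. When the probe sets of each gene were averaged 3 were higher and 10 lower, and with a single variance prior 0 were called. The median log2 difference of the 58 was -0.11, and that of all annotated genes -0.02. No gene of the tables matched the E2F and DP patterns, so the factors that RBR proteins bind were not analysed here.

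The list of kinases and their activators had 3 falls and no rise among 11 genes (27.3%), with a median of -0.16. Over all annotated genes 26.1% passed, 12.8% higher and 13.3% lower. Of the A class, which D-type cyclins bind, neither CDKA-1 nor CDKA-2 passed. CDKA-1 read 809.8 and 860.5 in the mutant arrays and 880.9 and 896.5 in the wild-type arrays (log2 difference -0.09). CDKA-2 leaned the other way, with 377.8 and 336.6 in the mutant arrays and 330 and 259.9 in the wild-type arrays (log2 difference 0.27). CDKF-1, known in Arabidopsis as a kinase that activates other cyclin-dependent kinases, fell by 0.51 (limma adjusted p = 0.0244), with 1234.3 and 1753.3 in the mutant arrays against 2126.3 and 2089.9 in the wild-type arrays. CDKF-3 and CDKG-2 fell by 0.47 and 0.26. Of the other probe sets of CDKG-2, one passed at -0.48 and one, at -0.32, did not (limma adjusted p = 0.136). The kinase inhibitors had 4 rises and no fall among 6 genes (66.7%): EL2, KRP1, KRP4 and KRP6 rose by 0.56, 0.48, 0.52 and 0.58. Their median was 0.50. The other probe set of EL2 also passed, while those of KRP4 and KRP6, at 0.48 and 1.03, did not (limma adjusted p = 0.513 and 0.22). KRP5 and SMR1, at -0.18 and -0.49, did not pass.

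DNA replication genes, which E2F factors drive once RBR is phosphorylated, had 1 rise and 5 falls among 27 (22.2%). The share over all annotated genes, for this list and those below, was 26.1% (12.8% higher and 13.3% lower). The median of the 27 was -0.23. That is the value of MCM6, which read 9.1 and 33.4 in the mutant arrays and 15.9 and 37.5 in the wild-type arrays. All of these are under 78.5, as were all values of MCM3, MCM4, MCM5, MCM7, ORC3, RPA1B and RPA2A. The flap endonuclease gene FEN1A fell by 0.63, the origin recognition gene ORC2 by 0.41, and the clamp loader genes RFC2 and RFC3 by 0.38 and 0.31. RPA2C, a gene of a single-strand DNA binding subunit, read 18.2 and 8.7 in the mutant arrays and 67.5 and 66.7 in the wild-type arrays, and passed as lower. All 4 values are under 78.5, so no size is given. FEN1B rose by 0.34 on the probe set counted, and its other probe set, at -0.19, did not pass. Mitotic cyclins and B-type kinases had 1 fall among 6 (16.7%), that of CYCA1-4 by 0.32, with a median of -0.28. CYCA1-4 read 956 and 910.9 in mutant arrays against 1115.2 and 1229.3 in wild-type arrays. The kinase gene CDKB2-1 read 50 and 72.3 in mutant arrays and 26.9 and 29.6 in wild-type arrays, all under 78.5, and did not pass. Other cyclins, of the C, L, P and T classes and the meiotic SDS, had no call among 8 and a median of -0.08. The furthest from 0 were CYCP4-1 (above 0) and CYCP2-1 (below 0), neither with a signal above 78.5 in any array.

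**Figure D4:**
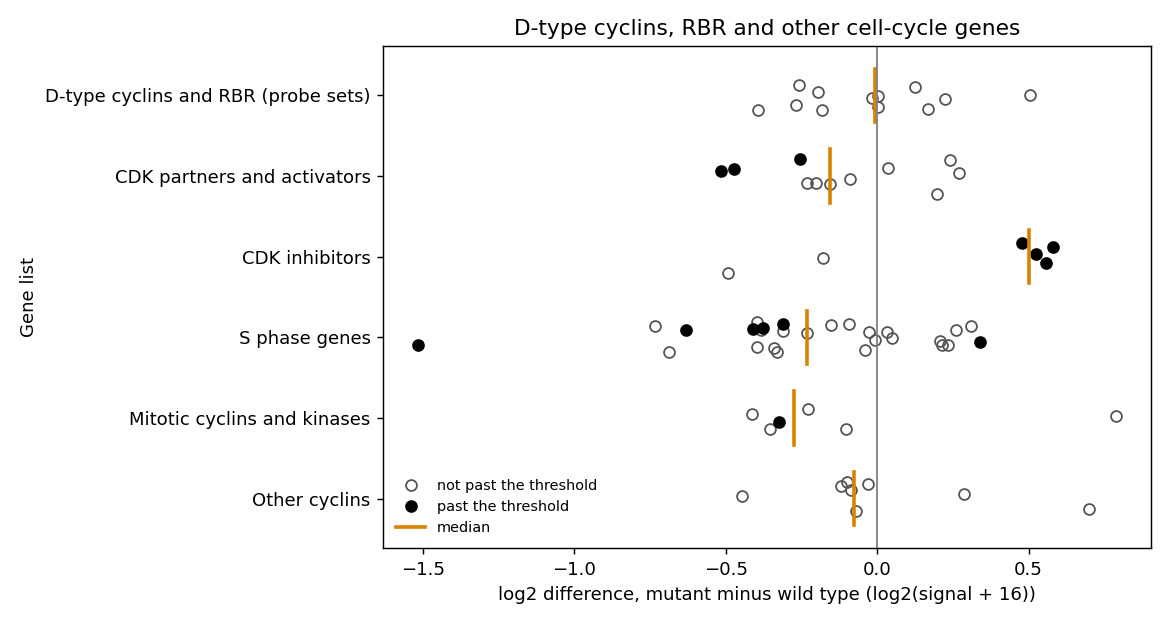
Log2 difference, mutant minus wild type, of the 12 tested D-type cyclin and RBR probe sets (top row) and of the 58 companion genes in 5 lists, 1 point each. Filled points passed a limma adjusted p of 0.05 and vertical bars are medians. No point of the top row is filled, and the 4 filled points of the inhibitor list lie near 0.5.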

How the data were processed

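Biotinylated cRNA from 8 µg of total RNA was hybridised to one Affymetrix rice array per sample, per the labels' protocols. The authors deposited linear intensity values per probe set, for which the submitters' processing notes name GCOS 1.2; how the signal was computed is not given in the sources used here. After trimming 2% of values at each end, the array means were equal. The number of arrays limits the precision, and no detection calls were used.

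Log2(signal + 16) was taken. The 123 AFFX controls were removed, and then the 19086 probe sets lowest in mean over the 4 arrays, which left 38172. Array medians lay within 0.06. Genotypes were compared with limma 3.58.1 in R 4.3.3 (intensity trend, Benjamini-Hochberg adjustment over these probe sets, threshold 0.05). The fit was tested on simulated data. Its p-values measure only the spread between these 4 samples. Intervals are at 95%.

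One gene was annotated for 22436 probe sets, several for 95 and none for 34850. Names were updated by gene number through the RefSeq table of assembly ASM3414082v1, a Japonica genome, where all 22436 matched. A synonym can join unlike genes. Members and lists were chosen with earlier results of these data known. All members are given. Of each companion list every called gene is named, or the 2 with the furthest differences where none was called. Replicate numbers did not pair samples: the differences between replicates 1 and 2 correlated at 3.1e-05 between genotypes. Alternatives covered the added constant, filter, scaling, variance prior, replicate block, single arrays and the call rule.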

Additional observations from a re-analysis of the deposited data

Results flagged for a closer look

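A signal outside the rice genes stood above its level in the wild-type arrays. The 1 reporter probe set left out of the background limit averaged 10188 in the mutant arrays (10386 and 9989) and 266 in the wild-type arrays (245.6 and 287.2). The highest signal of the other 63 reporter probe sets in any array was 78.5, the value that set the limit. With 2 arrays per genotype, no search for single outlying arrays was made.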

How the results depend on the processing

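No D-type cyclin or RBR probe set passed under any of the 15 alternatives, and the lowest adjusted p reached was 0.0565, for CYCD5-1 without mutant replicate 1. Over the single-array omissions, in which the lone sample is assumed to vary like the other group, the count of members called stayed at 0. The members at an unadjusted p under 0.05 numbered 0 without wild-type replicate 1 and under a single variance prior, and 2 or 3 otherwise. RBR2, CYCD5-1, CYCD5-3, CYCD4-2, CYCD3-2 and the brighter CYCD5-2 probe set kept their direction in every run, with RBR2 between -0.34 and -0.17 and CYCD5-1 between -0.53 and -0.25 over the omissions. The median of the tested members, a summary added after seeing the data, ran from -0.28 without wild-type replicate 2 to 0.03 with a common 75th percentile. Signs turned in 13 of 154 values, all of members far from the threshold. With log2(signal + 1), CYCD4-1 gave -0.016 and the dimmer CYCD5-2 probe set 0.062. With log2(signal + 64), CYCD3-1 gave -0.0038. With quantile normalization CYCD4-1 gave -0.075, and with a common 75th percentile the dimmer CYCD5-2 probe set gave 0.015. Over the omissions, CYCD2-2 ranged from -0.11 to 0.44, CYCD3-1 from -0.37 to 0.37, CYCD4-1 from -0.27 to 0.28, the dimmer CYCD5-2 probe set from -0.73 to 0.69, CYCD6-1 from -0.27 to 0.52 and the brighter RBR1 probe set from -0.52 to 0.16. The single variance prior called 0 probe sets in all and 0 companion genes, against 7244 and 14, with 9039 probe sets under 0.05 before adjustment. The cause was not tested. Companion genes called fell to 8 with no filter, where 57258 probe sets were tested, and to 7 without wild-type replicate 1 and 7 without wild-type replicate 2, and lay between 7 and 11 over all omissions. All probe sets called lay between 5028 and 6498 over the omissions. With the replicate number as a block, 0 members, 14 companion genes and 7661 probe sets were called. Dim signals limit RBR1, CYCD2-2, CYCD3-2, CYCD4-1 and CYCD4-2.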
